A study of Mus musculus with 4 samples.

Results

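Mc4r, Asgr1, Bcl2l14 and Gm12888 are 4 genes, of 53465 counted, that were near absent in the pup libraries and high in both adult libraries of cells sorted from the mouse submandibular gland. They were chosen by their counts in these same libraries and as genes outside known ionocyte lists. Their difference between ages is therefore a description and has no test here. The choice gave no numerical limit for "near absent" or "high". The study compared cells expressing Fgf10 from adults at postnatal day 60 and pups at postnatal day 7. All mice were C57BL/6J with the genotype Fgf10CreERT2:Rosa26Tomato fl/fl, in which tamoxifen switches on a Tomato reporter in cells that express Cre from Fgf10 at that time. Adults received tamoxifen at P57/58 and pups at P4/5 (P, postnatal day), with a dose of 0.1 mg per g. Each age had 2 libraries, and the labels do not say whether they came from separate animals, so spreads and tests cover only the difference between these samples, which may be technical. Because the sorted cells are a bulk sample, more cells of a type and more RNA per cell cannot be told apart.

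In the GENCODE vM21 annotation of GRCm38, Mc4r (ENSMUSG00000047259) lies on chromosome 18, from 66857704 to 66860506 on the minus strand, and is a single exon. Asgr1 (ENSMUSG00000020884) lies on chromosome 11, from 70054085 to 70057894 on the plus strand. Bcl2l14 (ENSMUSG00000030200) lies on chromosome 6, from 134396318 to 134438736 on the plus strand, and 14.1% of its exon length is shared with an antisense gene, 4933406J09Rik. Reads from that shared stretch cannot be assigned when strand is not marked. Gm12888 (ENSMUSG00000073764) lies on chromosome 4, from 121316316 to 121324917 on the minus strand. Exons of Mc4r, Asgr1 and Gm12888 shared 0 bases with another annotated gene.

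Mc4r encodes the melanocortin 4 receptor, a G protein-coupled receptor best known from the hypothalamus, where peptides cut from pro-opiomelanocortin activate it and agouti-related peptide blocks it to set food intake. Asgr1 encodes the major subunit of the asialoglycoprotein receptor, a C-type lectin best known from hepatocytes, which pairs with the Asgr2 subunit to take up glycoproteins that end in galactose. Bcl2l14, also called Bcl-G, is a member of the BCL2 family, whose proteins promote or restrain release of death signals from mitochondria. Gm12888 is a predicted protein-coding gene. Foxi1, the comparison gene, is the transcription factor that directs the fate of ionocytes, the ion-transporting cells rich in proton pumps and chloride channels.

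The stretches upstream of the starts are shown because genes with like patterns can be compared at their promoters. RefSeq windows (GRCm38.p6) were at hand for 3 of the 4 genes, Asgr1 and Bcl2l14 with 2 starts each. They are printed 5′ to 3′ on the gene's strand up to the first annotated exon base, with matches to the searched motifs in capitals. The windows are chr11:70053874-70054084 (plus) for Asgr1, chr6:134396079-134396317 and chr6:134414178-134414427 (plus) for the Bcl2l14 upstream and inner starts, and chr4:121324918-121325167 (minus) for Gm12888.
Asgr1 upstream start: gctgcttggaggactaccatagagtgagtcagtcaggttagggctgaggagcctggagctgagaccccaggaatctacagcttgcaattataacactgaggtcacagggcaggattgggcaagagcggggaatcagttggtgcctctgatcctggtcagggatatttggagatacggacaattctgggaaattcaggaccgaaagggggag
Bcl2l14 upstream start: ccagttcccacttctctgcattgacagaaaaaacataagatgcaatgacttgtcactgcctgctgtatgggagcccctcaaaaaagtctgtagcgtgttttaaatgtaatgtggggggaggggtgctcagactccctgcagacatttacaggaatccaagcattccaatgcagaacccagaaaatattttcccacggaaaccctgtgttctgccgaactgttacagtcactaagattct
Bcl2l14 inner start: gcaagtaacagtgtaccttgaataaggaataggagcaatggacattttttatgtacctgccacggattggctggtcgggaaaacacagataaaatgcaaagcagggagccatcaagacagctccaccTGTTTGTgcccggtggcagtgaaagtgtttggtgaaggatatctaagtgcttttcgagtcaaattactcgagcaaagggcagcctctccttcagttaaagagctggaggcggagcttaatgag
Gm12888: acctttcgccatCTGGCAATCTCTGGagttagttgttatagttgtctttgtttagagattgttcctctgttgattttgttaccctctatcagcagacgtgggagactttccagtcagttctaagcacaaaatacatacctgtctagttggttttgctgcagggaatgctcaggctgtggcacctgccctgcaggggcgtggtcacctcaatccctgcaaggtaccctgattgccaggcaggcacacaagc

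Both strands of the 250 bases before each start were searched for the forkhead motif TGTTTAC, for its variant TGTTTGT, for its variant TGTTTAT, and for CCAGNNNNNNCCAG, a form of the paired site bound by Tfcp2l1 and related factors. No 2 of the printed windows held the same motif. TGTTTGT stood 123 bases before the inner start of Bcl2l14, and CCAGNNNNNNCCAG, read on the other strand, 238 bases before the start of Gm12888. TGTTTAT stood 41 bases before the second start of Asgr1, inside an annotated exon and therefore not printed. The upstream starts of Asgr1 and Bcl2l14 held none of these letters. Among all 32851 RefSeq windows of that length, 12.2% held at least 1 of the forkhead motifs and 2.78% held CCAGNNNNNNCCAG. The windows of Asgr1, Gm12888 and the Bcl2l14 upstream start held 3 CpG dinucleotides each and that of the inner Bcl2l14 start 6, beside a median of 6 over all windows.

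Counts over genes came to 13791730 and 16585518 in adult replicates 1 and 2 and to 7289792 and 21490686 in pup replicates 1 and 2. Pup replicate 1 stood apart: 76.7% of its reads fell in no annotated gene feature, against 9.70% to 10.6% in the other libraries. Olfactory receptor genes, which gland cells are not known to use, had a count for 96.6% of 1106 members there and for 1.54% to 7.78% in the others. Their counts per kb of exon gave an expected background for each gene. The adults also differed in makeup. Summed over the marker list, mesenchyme stood at 1256 and 22439 CPM (the count as a share of the TMM-scaled library size), acinar cells at 563 and 48636 CPM, and ionocytes at 10345 and 6143 CPM in adult replicates 1 and 2. The mesenchyme sum was 26104 and 59715 CPM in pup replicates 1 and 2, above that of either adult. There the acinar sum was 608 and 1939 CPM, mostly Smgc (526 and 1564 CPM), and the ionocyte sum 403 and 523 CPM. In adult replicate 2 the acinar sum was instead mostly Mucl2 (37832 CPM) and Pip (10397 CPM). General epithelium summed to 7681 and 12098 CPM in the adults and to 1440 and 3403 CPM in the pups. Marker makeup thus differed between ages too, and its part in the differences between ages was not tested. Of 18 ionocyte markers, Atp6v0a4 had 0 counts in both adults. Of the 17 tested, 16 had a higher fitted level in adult, beside 42.9% of all genes tested. Highest in the pups were Tfcp2l1 (104 and 171 CPM), Moxd1 (75.1 and 200 CPM) and P2ry14 (83.9 and 86.1 CPM). In the adults P2ry14 was lower, at 0.766 and 20.6 CPM, and Moxd1 stood at 223 and 60.0 CPM.

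Mc4r had 1929 and 491 counts in adult replicates 1 and 2 and 3 and 0 counts in pup replicates 1 and 2. On the CPM scale its levels were 148 and 35.3 in adult against 0.325 and 0 in pup. Adult replicate 1 thus lay well above adult replicate 2, and both lay above the pups. A count of 0 in pup replicate 2 allows a level of up to 0.158 CPM (3 counts). Over the pooled counts of each age the ratio of adult to pup was 847, with a 95% exact interval of 289 to 4108 that covers counting error only. Without pup replicate 1, whose 3 counts are the only ones in pups, the adult mean was at least 581-fold higher.

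In pup replicate 1, the library with high background, 39.2 counts of Mc4r were expected from its exon length alone and 3 were seen. There were 1438 protein-coding genes with an expected 30 to 50 counts there and 0 counts in the other libraries. Their median count in pup replicate 1 was 31 (quartiles 11 and 57), and 12.4% had 3 or fewer. The expected background of a single gene is therefore approximate. At the olfactory receptor rate of adult replicate 2, where that rate was the higher of the adults, 0.438 of the 491 Mc4r counts were expected. That comparison bears on Mc4r in particular because a single-exon gene gives no spliced reads by which RNA could be told from DNA.

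Asgr1 had 7228 and 4509 counts in adult against 26 and 47 in pup. In CPM this was 554 and 325 against 2.81 and 2.47, so that the groups did not overlap and the pups lay close together. The mean was 439 ± 162 CPM (SD, n = 2) in adult and 2.64 ± 0.24 CPM in pup, a fitted log2 fold change of 7.38 ± 0.77 (SE). Background was expected to give 22.2 of the 26 counts in pup replicate 1, but 0.109 of the 47 in pup replicate 2. The pup libraries were close together with background included. How close they were without it is uncertain, since the expectation for a single gene is approximate.

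Bcl2l14 varied least on the pup side, at 6.82 and 6.72 CPM, and stood at 557 and 480 CPM in the adults. Its counts were 7266, 6663, 63 and 128 in adult replicates 1 and 2 and pup replicates 1 and 2. The adult mean was 518 ± 54.5 CPM (SD, n = 2) and the log2 fold change 6.26 ± 0.71 (SE), the smallest of the 4. Background predicts 57.2 of the 63 counts in pup replicate 1 and 0.281 of the 128 counts in pup replicate 2. The pup libraries were alike with background included. How alike they were without it is uncertain, since the prediction for a single gene is approximate. Counts of Bcl2l14, Asgr1 and Gm12888 above background were thus present in pup replicate 2, the library with little background, and "near absent" is a better description than absent.

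Gm12888 was the member with the closest adult values, 361 and 343 CPM (mean 352 ± 12.5 CPM, SD, n = 2). The pups stood at 2.71 and 0.74 CPM, pup replicate 1 being the higher, with 25 counts against 16.5 expected. Pup replicate 2 had 14 counts. The log2 fold change was 7.71 ± 0.94 (SE), and it was 8.88 without pup replicate 1.

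Foxi1 itself had 15667 and 11015 counts in adult against 39 and 147 in pup, which is 1201 and 793 CPM against 4.22 and 7.72 CPM. With background included, it alone among the 5 genes had more CPM in pup replicate 2 than in pup replicate 1. Background was expected to give 32.9 of the 39 Foxi1 counts in pup replicate 1, and most of the Asgr1 and Bcl2l14 counts there. The contrast with those 2 genes thus depends on background. The lower adult level was 103 times the higher pup level for Foxi1, and 109, 115, 70.4 and 127 times for Mc4r, Asgr1, Bcl2l14 and Gm12888. Both adults lay above both pups for all 4 members, which their choice fixed, and for 21.8% of the 16320 genes tested. Fgf10, the gene behind the sort, stood at 195 and 40.3 CPM in adult against 27.3 and 24.1 CPM in pup.

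**Figure D1:**
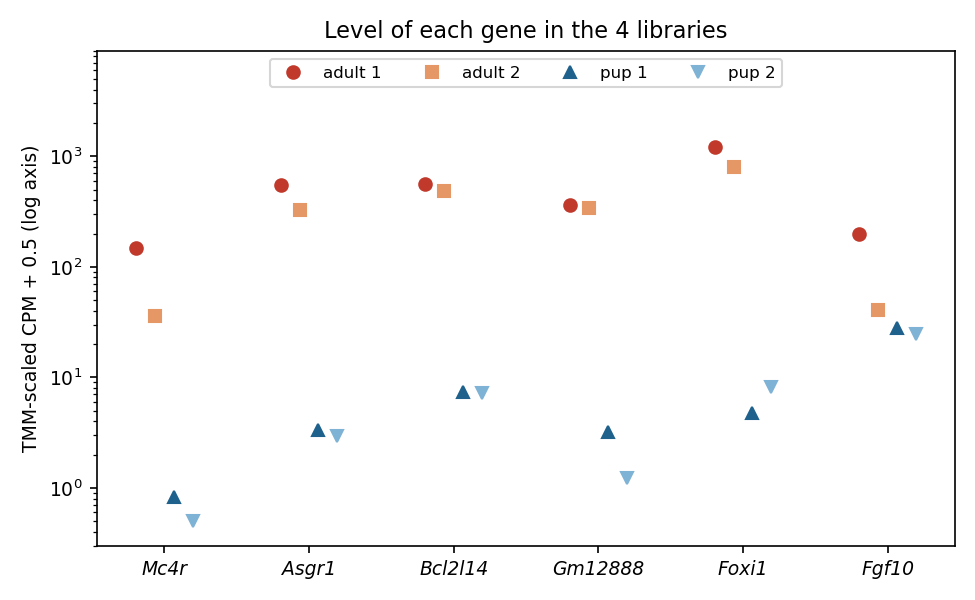
Level of the 4 genes, Foxi1 and Fgf10 in each library, as TMM-scaled CPM + 0.5 on a log axis. Red and orange points are the 2 adult libraries and blue points the 2 pup libraries. Foxi1 and the 4 genes sit at 35.3 CPM or more in the adults and at 7.72 CPM or less in the pups, while Fgf10 differs less between ages.

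Per kb of merged exon, the scale on which genes can be compared, the order of levels was Foxi1, Asgr1, Gm12888, Bcl2l14 and Mc4r in adult replicate 1, at 1109, 758, 665, 296 and 115 TPM (counts per kb, scaled to a common total). In adult replicate 2 it was Foxi1, Gm12888, Asgr1, Bcl2l14 and Mc4r, at 613, 529, 371, 213 and 23.0 TPM. Asgr1 and Gm12888 changed places between the adults, so their order is not settled. The places of Foxi1, Bcl2l14 and Mc4r were the same in both. By TPM, Asgr1 ranked 159 and 256 and Gm12888 187 and 174 among all genes in adult replicates 1 and 2, whereas Mc4r ranked 1091 and 4099. Where a gene uses only some of its merged exons, its TPM is understated.

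How many genes share the pattern depends on where the limits are set. At most 1 CPM in both pups and at least 20 CPM in both adults was met by 5 genes (0.00935% of all counted): Hspb7, a small heat shock protein, Rab17, a small GTPase of epithelial trafficking, Mc4r, C130074G19Rik and Gm12121. Mc4r was the 1 member among them. Asgr1, Bcl2l14, Gm12888 and Foxi1 exceeded 1 CPM in at least 1 pup library. With pup replicate 1 left out the number was 42, and with its background subtracted 34. Each of those sets held 2 members and not Foxi1. In pup replicate 2 Gm12888 stood at 0.736 CPM. Without adult replicate 1 the number was 18 and without pup replicate 2 9.

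A limit on the fold, added after seeing these levels, asked that the lower adult library have at least 20 CPM and at least 20 times the higher pup library. It was met by 50 genes (0.0935% of all counted), among them all 4 members and 9 of the 18 ionocyte markers, Foxi1 included. Ranked by the lower adult level, Foxi1 was the seventh of the 50, and Bcl2l14, Gm12888, Asgr1 and Mc4r were in places 14, 18, 19 and 48. These counts use the contrast that chose the members and lend it no support.

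**Figure D2:**
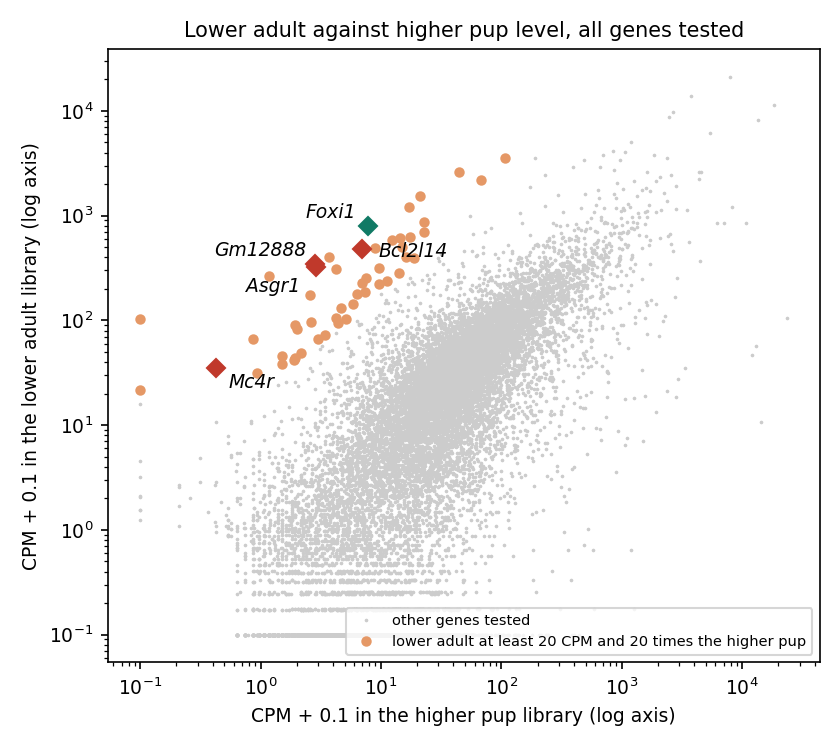
Each point is a gene tested, with its CPM + 0.1 in the higher pup library on the x axis and in the lower adult library on the y axis, both log axes. Orange points are the genes with at least 20 CPM in the lower adult library and at least 20 times the higher pup library. The 4 genes (red) and Foxi1 (green) lie along the upper left edge, Mc4r at the lowest level.

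The ratio of the 2 adult libraries was not part of how the genes were selected beyond a high level in both, and it divided them. Mc4r was 4.18 times higher in adult replicate 1 than in adult replicate 2 (95% exact interval 3.79 to 4.63), Asgr1 1.71 times (1.64 to 1.77), Bcl2l14 1.16 times (1.123 to 1.2002) and Gm12888 1.05 times (1.01 to 1.10). Foxi1 was 1.51 times higher (1.48 to 1.55). All intervals cover counting error only, and since the adult pair was measured once, no spread of the ratio over animals is known and no test of it was possible.

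Divided by the ratio of Foxi1, which removes library size and scaling, the value was 2.76 for Mc4r (95% interval 2.49 to 3.06), 1.13 for Asgr1 (1.08 to 1.178), 0.767 for Bcl2l14 (0.736 to 0.799) and 0.695 for Gm12888 (0.663 to 0.728). These intervals are normal approximations on the log of the counts. Asgr1 was thus the closest to Foxi1, Bcl2l14 and Gm12888 were more even between the adults than Foxi1, and Mc4r was more uneven. Against the median of the ionocyte markers in place of Foxi1, the values were 1.93, 0.789, 0.537 and 0.486, so Asgr1 changed sides. Against Fgf10, a reference added after seeing the data, Mc4r gave 0.863 (0.754 to 0.987). Fgf10 itself had a ratio of 4.85 (4.42 to 5.32).

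Other ionocyte genes differed among themselves too. Tfcp2l1, a transcription factor of transporting epithelia, had a ratio of 0.900, Ascl3 2.18, Bsnd, the barttin subunit of chloride channels, 2.19, Hepacam2 2.57 and Cftr 2.69. Over the 17 ionocyte markers with at least 20 counts in the adults together the median ratio was 2.16, and 0 exceeded that of Mc4r. P2ry14, with a log2 ratio of -4.06, was the lowest of them. Over 14364 genes with at least 20 such counts the median was 0.958, and 3.27% exceeded Mc4r. Among the 50 genes past the fold limit, 1 had a higher ratio than Mc4r: Iapp, the gene for the hormone amylin, with 2710 and 610 counts in adult against 17 and 0 in pup.

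Markers of other cell types also differed between the adults. The 6 basal and myoepithelial markers all had a higher ratio than Foxi1, with a median of 2.61, and Trp63, which encodes p63, exceeded Mc4r. So did Csf1r, a macrophage receptor, and Syt1, a synaptic vesicle protein. The 5 acinar, 8 mesenchymal and 6 endothelial markers with enough counts had median ratios of 0.0104, 0.0526 and 0.00521, so all 3 were far higher in adult replicate 2. The summed basal and myoepithelial level was 5127 and 2180 CPM in the adults, but 4894 and 14222 CPM in the pups, where Mc4r was near absent. Their part in the ratio of Mc4r was not tested.

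**Figure D3:**
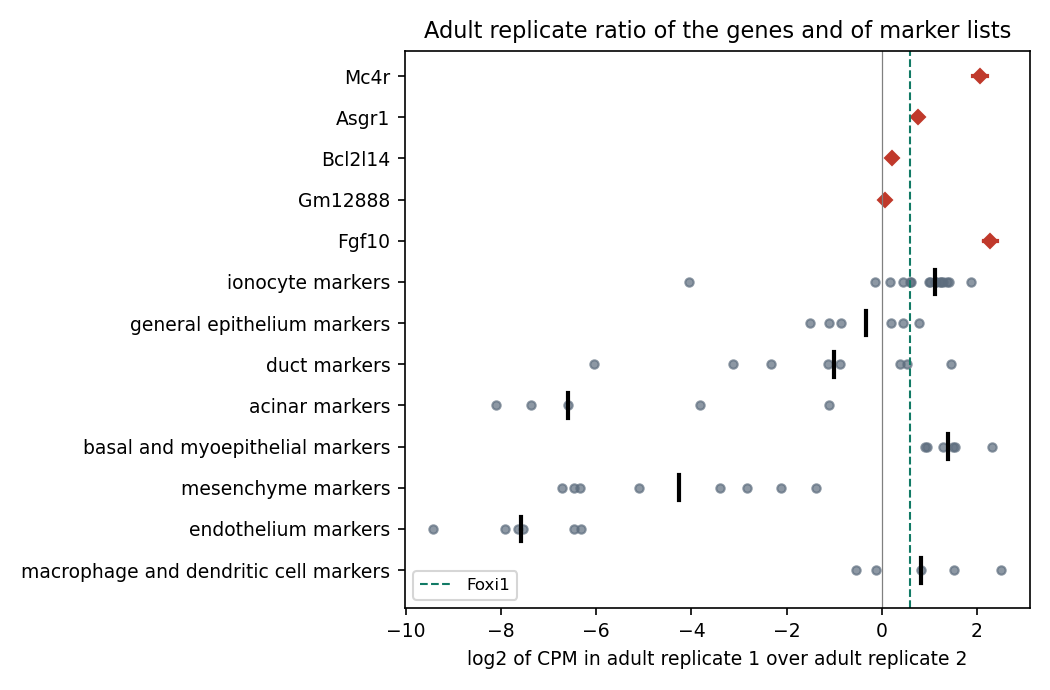
log2 ratio of CPM in adult replicate 1 over adult replicate 2. Diamonds with bars are the 4 genes and Fgf10 with 95% counting intervals, grey points are single markers (CPM + 0.5 in the ratio), black bars their medians, and the dashed line is Foxi1. Asgr1 sits next to the line, Bcl2l14 and Gm12888 lie left of it, and Mc4r lies right of it beside Fgf10.

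The genes nearest in pattern were found by the Euclidean distance between log2(CPM + 0.5) over the 4 libraries after subtracting each gene's mean. Over 16320 genes the nearest to Asgr1 were Ascl3 (distance 0.519), Prr15l, Foxi1 (0.721), Atp6v0d2 and Aldh1a3. To Mc4r they were Aldh1a3 (0.482), a retinaldehyde dehydrogenase, Atp6v0d2, a subunit of the proton pump, Prr15l, Neurl1a and Dmrt2. To Bcl2l14 they were Atp2a3 (0.348), a calcium pump of the endoplasmic reticulum, Rab17 (0.408), Gm12121, Slc4a11 and Prr15l. To Gm12888 they were Foxi2 (0.791), a relative of Foxi1, Asgr1 (1.06), Hspb7, Neurl1a and Prr15l. Ascl3, Foxi1, Atp6v0d2 and Dmrt2 are on the ionocyte list, and Prr15l was among the nearest of all 4 members. Mc4r (0.325 and 0 CPM in the pups) and Hspb7 and Gm12121 (0 counts in both pups) lay below the added 0.5 CPM there. Their pup values in the distance are thus mostly the added 0.5 CPM, which makes their difference between ages smaller.

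With Foxi1 as the starting gene, Asgr1 was in place 2, Bcl2l14 in place 10, Mc4r in place 16 and Gm12888 in place 17 of 16319 genes. Fgf10 was in place 1018. With only 4 libraries such distances are a description, and the place of Mc4r depends on the CPM added to each level. The difference between ages, which chose the members, enters each of them.

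Mc4r stood alone among the melanocortin receptors in the adults. Mc2r, Mc3r and Mc5r had 0 counts in both adults, and Mc1r 0 and 1. In pup replicate 1 they had 14 to 109 counts, where background predicts 22.8 to 54.6, and in pup replicate 2 at most 1. Agrp, the antagonist, and Mrap2, an accessory protein that modulates Mc4r signalling, had 0 counts in the adults and 0 in pup replicate 2. Mrap, the other accessory protein listed, had 0 and 1 counts in adult against 49 and 42 in pup, with 22.1 predicted by background in pup replicate 1 (log2 fold change -6.37 ± 2.40, SE; edgeR adjusted p = 0.304, DESeq2 adjusted p = 0.0836). Pomc, the precursor of the activating peptides, was at 1.07 and 1.80 CPM in adult against 0.433 and 0.630 CPM in pup. Its log2 fold change was 1.41 ± 1.74 (SE), with edgeR adjusted p = 0.793. Pcsk1, which makes the first cut of that precursor, had 0 counts in the adults, and Pcsk2, which makes later ones, stood at 0 and 1.15 CPM.

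Of the 16 measured genes of that list 9 were tested, and by edgeR's quasi-likelihood test at an adjusted p under 0.05 0 were called higher in adult and 0 lower, as for all 16320 genes (0.0% in each direction). At an unadjusted p under 0.05 edgeR gave 0 higher and 2 lower (Cpe and Mrap), where 5.99% and 8.49% of all genes did so. DESeq2 called 0 higher and 1 lower, where it called 3.74% and 5.28% of all genes. When all libraries of 1 age had to reach 10 counts, edgeR called 0.0856% of genes higher and 0.0132% lower, and 0 of the related and neighbouring genes. The gene DESeq2 called was Cpe, a carboxypeptidase that trims peptide hormones, at 148 and 195 CPM in adult against 562 and 1151 CPM in pup (log2 fold change -2.32 ± 0.79, SE; DESeq2 adjusted p = 0.000213, edgeR adjusted p = 0.284). The list's median log2 fold change was -0.41 beside -0.24 for all genes. Mgrn1, a ubiquitin ligase that restrains melanocortin receptor signalling, stood at 325 and 232 CPM in adult and 87.2 and 141 CPM in pup (1.29 ± 0.58; edgeR adjusted p = 0.396).

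Atrn, which encodes attractin, a membrane protein of the agouti pathway, had a log2 fold change of -0.41 ± 0.56 (SE). Gnas, the gene for the stimulatory G protein through which Mc4r acts, stood at 20.6 to 24.8 CPM in all 4 libraries. It overlaps other annotated transcripts, so its count is uncertain. Kcnj13, a potassium channel reported to couple to Mc4r in neurons, stood at 8.81 and 0.288 CPM in adult against 10.3 and 16.8 CPM in pup. Hypothalamic and general neuronal markers were scarce in the adults: Snap25, Rbfox3 and Slc17a6 had 0 counts, Sim1 had 0 and 1, and the 7 markers summed to 7.59 and 1.58 CPM, below Mc4r alone. Most of that sum was Syt1, with 97 and 13 counts (7.43 and 0.936 CPM). Its adult ratio, 5.53 with 0.5 CPM added to each level, was above that of Mc4r, and its part in the ratio of Mc4r was not tested.

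Asgr1 was high without its partner. Asgr2, which encodes the minor subunit and lies 34.8 kb from Asgr1 on the same chromosome, had 0 and 5 counts in the adults against 7228 and 4509 for Asgr1. It had 16 counts in pup replicate 1, where background predicts 22.0, and 0 in pup replicate 2. Of the related lectins, Clec10a, Clec4f, Clec4g, Cd207 and Fcer2a had 0 counts in both adults, Cd209a had 0 and 1, and Mgl2 0 and 38. Hepatocyte markers were low in the adults: Alb, Serpina1a, Fgb, Tat and Cps1 had 0 counts, and the 8 markers summed to 0 and 10.7 CPM. In adult replicate 2, Ttr had 108 counts, Apoa1 27 and Apob 13. The macrophage and dendritic cell list, whose cells use such lectins, summed to 30.04 and 21.1 CPM in adult replicates 1 and 2. There Adgre1 and Itgax had 0 counts, while Lyz2 had 118 and 185, Ptprc 101 and 33, Csf1r 79 and 9, C1qa 72 and 40 and Cd68 22 and 26. In pup replicate 1, the library with high background, the list summed to 98.5 CPM, with 43 counts of Adgre1 and 84 of Itgax. In pup replicate 2 it summed to 12.6 CPM. Adgre1, Itgax and Ptprc had 0 counts in that library, while Lyz2 had 120 and Cd68 114.

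St6gal1, which adds the sialic acid that hides galactose, stood at 4.67 and 9.29 CPM in adult against 35.1 and 62.8 CPM in pup (log2 fold change -2.81 ± 0.68, SE). It passed DESeq2 (adjusted p = 0.00441) and did not pass edgeR (adjusted p = 0.240). Neu1, a sialidase of lysosomes, had a log2 fold change of 0.94 ± 0.60, and St3gal4 -0.34 ± 0.63. Colec12, a scavenger receptor with a collectin domain, had -0.78 ± 0.69. None of these 3 genes passed edgeR or DESeq2. Of the 13 genes 6 were tested, with a median log2 fold change of -0.56. Of them edgeR called 0 in either direction (unadjusted p under 0.05: 0 higher, 1 lower, beside 5.99% and 8.49% of all genes). DESeq2 called 0 higher and 1 lower, beside 3.74% and 5.28% of all genes.

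Per kb of exon, Bcl2l14 (296 and 213 TPM in adult replicates 1 and 2) lay above all 22 listed BCL2 family genes in adult replicate 1 and, Mcl1 excepted, in adult replicate 2. Mcl1, a survival factor, was at 141 and 275 TPM. On the CPM scale Mcl1 stood at 222 and 516 CPM in adult against 336 and 654 CPM in pup. Of those 22 genes 17 were tested, with 7 positive and 10 negative log2 fold changes and a median of -0.42. By edgeR 0 were called in either direction (unadjusted p under 0.05: 2 higher, 2 lower, beside 5.99% and 8.49% of all genes). DESeq2 called 2 higher and 0 lower, beside 3.74% and 5.28% of all genes.

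Those 2 were Bik, which promotes cell death from the endoplasmic reticulum, and Bcl2l1, which encodes the survival protein BCL-XL and its shorter form. Bik stood at 61.1 and 56.4 CPM in adult against 3.14 and 2.05 CPM in pup, with 29 counts in pup replicate 1 against 22.2 expected. Its log2 fold change was 4.51 ± 0.62 (SE; edgeR adjusted p = 0.164, DESeq2 adjusted p = 3.91e-08). Between the adults Bik had a ratio of 1.08, beside 1.16 for Bcl2l14. Bcl2l1 stood at 224 and 221 CPM against 91.9 and 64.6 CPM (1.51 ± 0.52; edgeR adjusted p = 0.284, DESeq2 adjusted p = 0.0411). Bcl2, the founding survival gene, went the other way in value, at 41.2 and 18.1 CPM in adult and 107 and 78.0 CPM in pup (-1.64 ± 0.57; edgeR adjusted p = 0.284, DESeq2 adjusted p = 0.107).

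Bcl2l15, a family member known from the gut, had 0 counts in both adults. The effectors Bax and Bak1 had log2 fold changes of -0.02 ± 0.64 and -0.79 ± 1.72 (SE). The Bcl2a1 copies are near-identical, so their counts, all under 1 CPM in the adults, are uncertain.

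**Figure D4:**
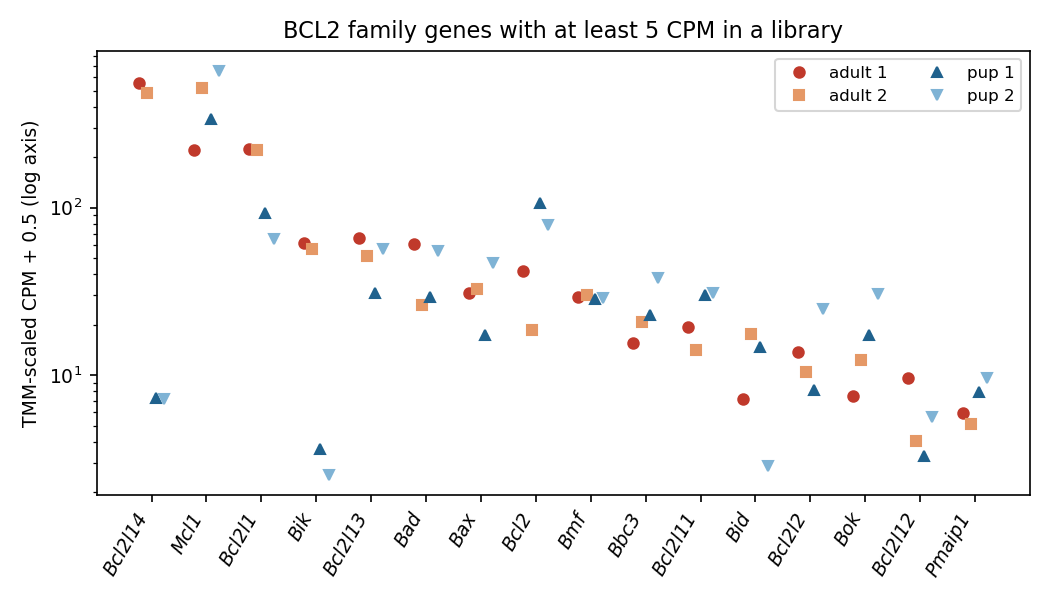
TMM-scaled CPM + 0.5, on a log axis, of Bcl2l14 and the BCL2 family genes with at least 5 CPM in a library, in order of adult mean. Red and orange points are adults, blue points pups. Bcl2l14 and Bik show the adult points far above the pup points.

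Genes within 200 kb differed between the 4 loci. Around Asgr1, 36 genes were counted and 25 tested, 15 with a positive and 10 with a negative log2 fold change, at a median of 0.07. Slc16a11, a monocarboxylate transporter family gene 155 kb downstream, stood at 780 and 317 CPM in adult against 6.06 and 9.46 CPM in pup (log2 fold change 6.14 ± 0.88, SE). It passed DESeq2 (adjusted p = 7.26e-19) and did not pass edgeR (adjusted p = 0.164), and it is among the 50 genes past the fold limit. Its neighbour Slc16a13 had 1296 and 695 counts in adult against 58 and 234 in pup. Ybx2, an RNA-binding protein known from germ cells, was at 21.6 and 10.9 CPM in adult, with 1.30 and 1.37 CPM in pup. With them, the lipoxygenase gene Alox12 (3.87 ± 0.68), the tight junction gene Cldn7 (2.82 ± 0.71) and Acadvl (2.09 ± 0.58), an enzyme of fatty acid oxidation, were the other DESeq2 calls near Asgr1, all higher. By edgeR 0 of these passed, with 6 higher and 0 lower at an unadjusted p under 0.05, beside 5.99% and 8.49% of all genes. DESeq2 thus called 6 higher and 0 lower of the 25 tested, beside 3.74% and 5.28% of all genes. Of the genes with a mean of at least 1 CPM between Ybx2 and Acadvl, Slc2a4, Elp5, Ctdnep1, Gabarap, Phf23 and Dvl2 had log2 fold changes of -0.70 to 0.79 and did not pass either test. Dlg4, the nearest gene at 6.56 kb, was at 0.383 and 1.94 CPM in the adults.

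Around Bcl2l14, 9 genes were counted and 5 tested. By edgeR 0 were called in either direction (unadjusted p under 0.05: 2 higher, 0 lower). Over all genes the unadjusted edgeR shares were 5.99% higher and 8.49% lower, and the DESeq2 shares 3.74% and 5.28%. DESeq2 called 2 higher and 0 lower: Mansc1, at 60.3 and 51.7 CPM in adult against 2.38 and 3.84 CPM in pup (log2 fold change 4.16 ± 0.62, SE; edgeR adjusted p = 0.164), and Etv6, an ETS repressor (1.77 ± 0.57; edgeR adjusted p = 0.284). Lrp6, a WNT co-receptor 7.74 kb away, had -0.42 ± 0.45. Around Gm12888, 12 genes were counted and 2 tested, Rlf and Gm12886, of which edgeR and DESeq2 called 0 (edgeR unadjusted p under 0.05: 0). Rlf stood at 26.1 and 30.5 CPM in adult against 44.9 and 40.1 CPM in pup. Around Mc4r, 1 gene was counted and 0 were tested.

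**Figure D5:**
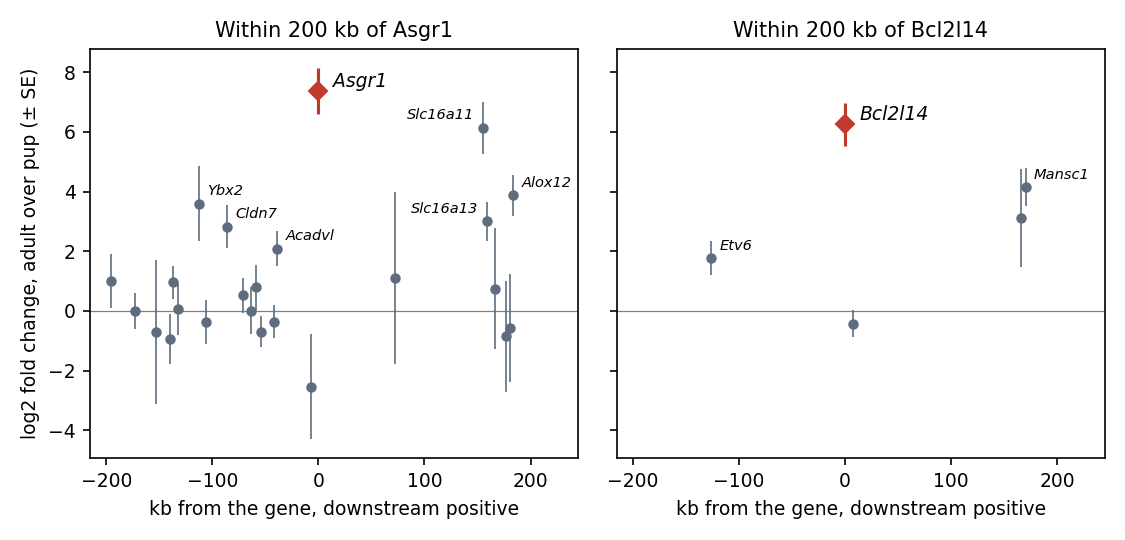
log2 fold change of adult over pup with its SE for genes of at least 1 CPM on average within 200 kb of Asgr1 (left) and Bcl2l14 (right), against distance in kb in the direction of transcription. Slc16a11 is the neighbour closest to Asgr1 in fold, and Mansc1 the one closest to Bcl2l14.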

How the data were processed

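RNA of 4 libraries, 2 per age, was prepared with the SMART-Seq HT kit from 1 ng of total RNA, per the labels' protocols. The deposited values are raw read counts per Ensembl gene. The submitters' processing notes name cutadapt 1.18, STAR 2.5.2a, HTSeq 0.11.0, R 3.5.1, DESeq2 1.20.0 and GRCm38. For options and strand, nothing is given in the sources used here. Tally rows that name no gene (31.5% to 84.4% of reads) were left out. There were 8 value columns in 2 series tables that matched no single sample and were not used. Of 53465 genes, 53360 matched GENCODE vM21.

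Counts were tested with the quasi-likelihood test of edgeR 4.0.16 in R 4.3.3, with TMM factors, a filterByExpr filter (at least 10 counts, total at least 15), a model of age alone and Benjamini-Hochberg adjustment over 16320 genes. Alternatives used DESeq2 1.42.0, limma-voom (limma 3.58.1), other scalings and filters, a replicate block, and leaving out 1 library at a time. Background in pup replicate 1 was the olfactory receptor count per kb times exon length, at 0.5 of that on X and Y. The members and lists were chosen with earlier results of these data known. Named beside the members are the 5 genes nearest in pattern, up to 4 genes of highest mean CPM or called genes per related list, neighbours with a mean of at least 1 CPM, markers set beside a result, genes of the 5 near absent in pup, and other list members singled out after their values were seen. Asip matched no gene counted.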

Additional observations from a re-analysis of the deposited data

How the results depend on the processing

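With all 4 libraries edgeR called 0 genes higher and 0 lower in adult under TMM, DESeq2 size factors, upper-quartile factors, library totals, background subtraction and the replicate block, and limma-voom did likewise. With no filter beyond 1 count the numbers were 284 and 231, with 10 counts in every library of an age 13 and 2, and with DESeq2 610 and 862. Leaving out 1 library gave 0 to 247 higher and 0 to 733 lower (229 and 161 if adult replicate 1 was left out, 247 and 733 if adult replicate 2 was, 0 and 0 for either pup library). Of the 63 related and neighbouring genes tested, 5 were called higher with no filter, 10 higher and 2 lower with DESeq2, and 0 to 5 higher and 0 to 1 lower with 1 library left out. With the replicate block 0 genes were called. The deviations of adult replicate 1 and pup replicate 1 from their age means had a correlation over genes of -0.098. With 2 libraries per age, this value cannot decide whether same-numbered libraries were handled together.

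Over all genes tested the median log2 fold change, -0.24, shifted by -0.18 under upper-quartile factors, by -0.38 under library totals, by 0.18 with limma-voom and by 0.18 with background subtracted. It shifted by -3.38 with no filter, by -0.18 if adult replicate 2 was left out and by 0.28, to 0.04, if pup replicate 1 was. The members' log2 fold changes stayed positive in every alternative for which a value is given. With pup background subtracted they were 8.06 for Asgr1, 7.03 for Bcl2l14 and 8.53 for Gm12888. Bcl2l14 was 6.08 with upper-quartile factors, 5.90 with library totals and 6.40 with no filter. With 1 library left out the ranges were 7.82 to 10.16 for Mc4r, 6.89 to 7.71 for Asgr1, 6.10 to 6.36 for Bcl2l14, 7.02 to 8.88 for Gm12888 and 7.01 to 7.88 for Foxi1. For Mc4r no value is given without pup replicate 1 or with its background subtracted, since no pup count is left.

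The adult ratio of Mc4r, 2.76 relative to Foxi1, was 1.93 relative to the ionocyte median and 0.863 relative to Fgf10. Without a reference it was 4.18 under TMM, 4.36 under DESeq2 size factors and 4.72 under library totals. In the same order Asgr1 gave 0.789, 0.352, 1.71, 1.78 and 1.93, Bcl2l14 0.537, 0.239, 1.16, 1.21 and 1.31, and Gm12888 0.486, 0.217, 1.05, 1.10 and 1.19. Values on both sides of 1 follow from the reference chosen. The 5 genes near absent in pup became 3 at a limit of 0.5 CPM, 16 at 2 CPM, 2 at 50 CPM in adult, 3 under library totals, 34 with background subtracted and 50 under the fold limit. With 1 library left out they numbered 5 to 42. Depth limits Mc4r most, at 3 counts in the pups.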
